A study of Mus musculus with 15 samples.

Results

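Grhl1, Grhl2, Grhl3, Trp63, Zfp750, Ovol1, Klf4 and Klf5 encode transcription factors that are known for directing the differentiation of the epidermis and of other stratified epithelia. These 8 genes were selected by their symbols from the 20418 gene symbols in the RNA sequencing tables of 15 mouse eye libraries, and all 8 were found. Each gene was represented by its deposited transcript with the highest mean read count. The study asked how the loss of Egr1, which encodes a zinc finger transcription factor induced by growth signals, bears on the development of the eyelids in BALB/c mice.

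The newborn set held 2 libraries labelled Egr1 knockout and 2 labelled wild type (WT). The day 3 set held single eyes of mice aged 3 days: 4 eyes labelled Egr1-/- with open eyelids (1 each from mice E24 and E29, both from mouse E32), 2 labelled Egr1-/- with closed eyelids (the other eyes of E24 and E29) and the 2 closed eyes of 1 Egr1+/- mouse, E28. The adult set held 2 labelled knockout libraries and 1 WT library. All were labelled as eyes of strain BALB/c, and the Egr1 allele came from a C57BL/6 line; crossing to BALB/c ran over 5 generations in the initial and 4 in a later round, so that donor sequence may persist around it. The labels describe enucleated eyes with eyelids, both fixed tissue and tissue kept in RNAlater, and do not say which of these gave which library. They name no animals and no exact ages for the newborn and adult libraries, so p-values there measure only the spread between libraries, which may be technical.

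The grainyhead-like factors Grhl1, Grhl2 and Grhl3 bind a shared DNA core and control junction and barrier genes; mice without Grhl3 are born with open eyelids. Trp63 encodes p63, which is needed to form and maintain stratified epithelia. In human keratinocytes ZNF750, the counterpart of Zfp750, is a p63 target that drives terminal differentiation together with KLF4. Klf4 is needed for the epidermal barrier in mice, Klf5 is known for its role in proliferating basal cells, and Ovol1 encodes a repressor that helps progenitor cells to stop dividing. Mouse eyelids fuse before birth and part again after it, and the sheet that joins them is epidermal.

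Klf4, Grhl3 and Grhl1 were the members with promoter entries in the RefSeq table of mouse build GRCm38.p6, which covers 250 bases before to 50 after a start site. They are shown because KLF4 and KLF5 bind CACCC-like and GC-rich boxes, and because EGR1, the factor named in the genotype labels, binds a GC-rich site that can overlap such boxes. Capitals mark every match, on either strand, to the KLF box CCNCNCCC or to the EGR site GCGNGGGCG, and each sequence is written 5′ to 3′ on the strand of its gene. Klf4 lies at chr4:55532426-55532725 on the minus strand, Grhl3 at chr4:135573583-135573882 on the minus strand, and the first entry of Grhl1 at chr12:24572037-24572336 on the plus strand.
Klf4: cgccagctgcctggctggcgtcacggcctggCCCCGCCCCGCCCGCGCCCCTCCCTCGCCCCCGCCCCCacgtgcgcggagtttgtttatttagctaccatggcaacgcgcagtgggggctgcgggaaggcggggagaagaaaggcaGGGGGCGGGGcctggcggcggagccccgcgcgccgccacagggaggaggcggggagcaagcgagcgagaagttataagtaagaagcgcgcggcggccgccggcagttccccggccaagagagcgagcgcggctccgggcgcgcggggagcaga
Grhl3: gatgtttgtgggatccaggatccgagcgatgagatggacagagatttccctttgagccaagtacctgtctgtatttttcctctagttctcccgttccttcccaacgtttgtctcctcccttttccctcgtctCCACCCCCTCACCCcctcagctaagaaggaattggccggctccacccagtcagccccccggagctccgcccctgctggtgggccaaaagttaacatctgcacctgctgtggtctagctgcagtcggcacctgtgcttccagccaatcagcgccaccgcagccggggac
Grhl1: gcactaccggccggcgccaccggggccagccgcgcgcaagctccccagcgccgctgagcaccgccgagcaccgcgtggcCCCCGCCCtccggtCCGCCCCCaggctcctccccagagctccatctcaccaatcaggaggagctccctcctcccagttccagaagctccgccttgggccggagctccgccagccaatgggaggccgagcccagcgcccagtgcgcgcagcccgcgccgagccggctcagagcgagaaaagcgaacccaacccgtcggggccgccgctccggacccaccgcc
The Klf4 promoter held 9 KLF box matches and 2 EGR site matches, both of which overlapped a KLF box, and 74.3% of its bases were G or C. Grhl3 and Grhl1 held 2 KLF box matches each and no EGR site match, at 58.3% and 75.3% G or C. Of 32851 mouse promoters of the same length, 49.5% held the KLF box and 5.55% the EGR site, and their median was 52.7% G or C. None of these windows held the grainyhead core AACNNGTT (4.2% of promoters), the AP-1 site TGANTCA (7.81%) or the OVO core CCGTTA (2.76%), and the second Grhl1 entry, at chr12:24580469-24580768 on the plus strand, held none of the searched letters. A match describes the letters only.

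The libraries held 20334849 to 43907093 transcript-assigned reads, in which a read counts once for every deposited transcript it falls in. Reads on a single member ran from 49, for Ovol1 in the closed eye of E24, to 9608, for Klf4 in an adult labelled knockout library. At 49 reads the counting error alone is 14.3% (1 SD). Egr1 itself went against the labels. It was at 214.4 and 273.6 CPM, a read count scaled to library size, in newborn labelled knockout libraries and at 46.1 and 60.7 CPM in newborn WT libraries, and at 256.0 and 184.4 CPM in adult labelled knockout libraries against 33.0 CPM in the adult WT library. At day 3 it was at 156.6 to 366.5 CPM in labelled knockout eyes and at 99.3 and 110.3 CPM in the eyes labelled Egr1+/-. Reads over a gene do not show whether its protein is made, and the genotypes are named below as the labels give them. Eye tissues were not evenly present. Cryaa, a lens crystallin, was at 250.2 CPM in newborn labelled knockout replicate 1 against 36240 and 40070 CPM in newborn WT libraries, and Krt12, the keratin of the corneal epithelium, was at 2.64 CPM in adult labelled knockout replicate 1 against 6411 CPM in the adult WT library. Krt5, the keratin of basal stratified epithelium, was read in every library, at 332.5 to 6663 CPM.

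All 8 genes were read in all 15 libraries, and their levels were high and low in much the same groups. Klf4 and Klf5 had the highest levels of the 8 in every library, measured as deposited RPKM, a read count scaled by exon length and library size. Klf4 reached 132.2 RPKM in adult labelled knockout replicate 2, while Grhl2 was the lowest of the 8 in 3 of 3 adult libraries, at 4.45 to 6.69 RPKM. For 7 of the 8 genes the highest group mean was in adult eyes, and for Grhl2 it was in newborn labelled knockout eyes, at 7.77 ± 1.05 RPKM (SD, n = 2). The lowest group mean was in day 3 labelled knockout eyes with closed lids for Grhl1, Grhl2, Grhl3, Trp63, Ovol1 and Zfp750, and in newborn WT eyes for Klf4 and Klf5. Many neighbours in these orders had overlapping ranges, among them newborn labelled knockout and day 3 open eyes for Grhl1, Grhl3, Trp63, Ovol1, Klf4 and Zfp750.

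**Figure D1:**
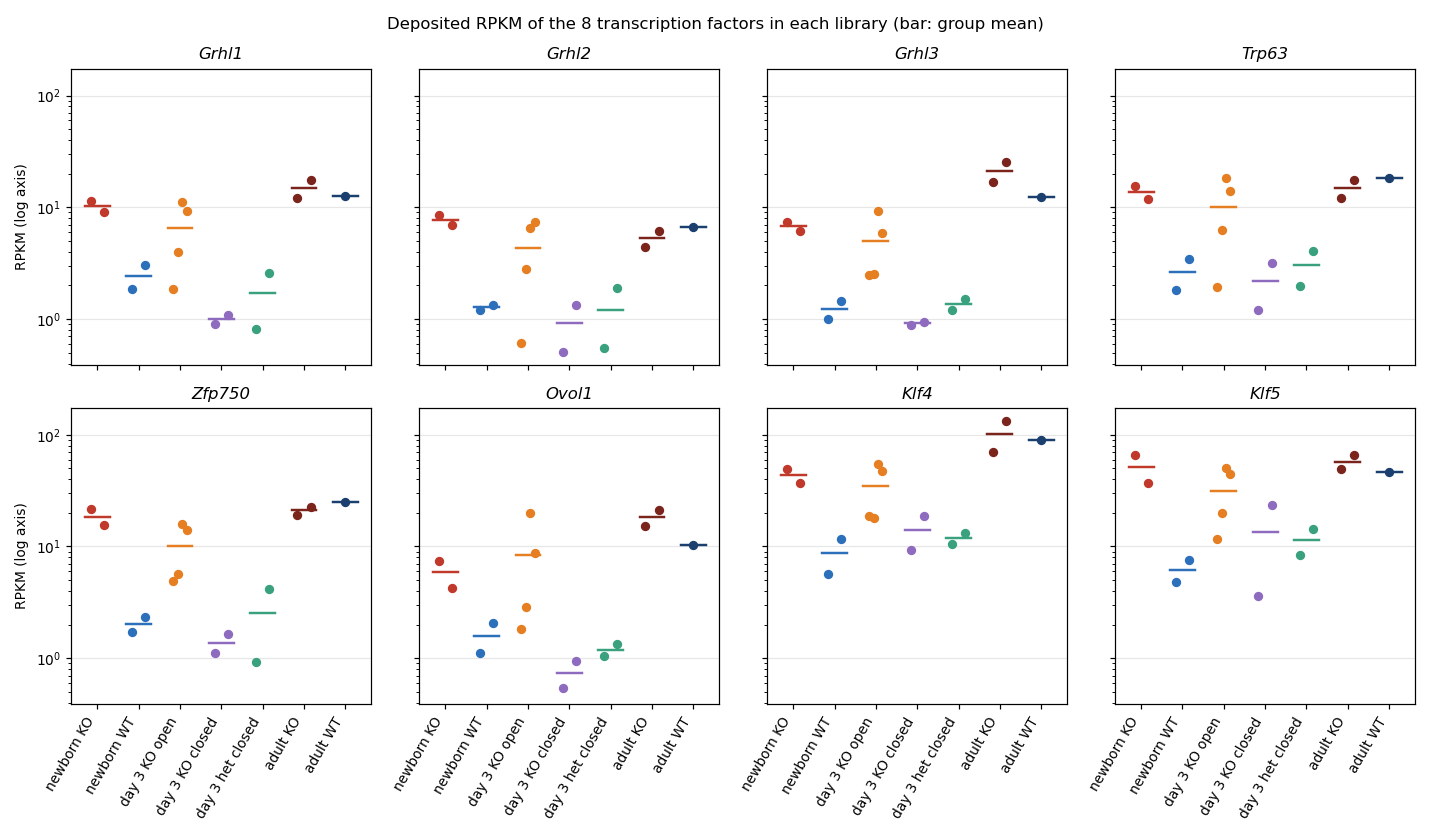
Deposited RPKM (log axis) of each of the 8 genes by group; each point is a library and each bar the group mean. Zfp750 lies at 4.92 to 24.99 RPKM in labelled knockout newborn, open day 3 and adult eyes and at 0.916 to 4.17 RPKM in closed day 3 and newborn WT eyes, while for Grhl1, Grhl2, Trp63, Klf4 and Klf5 the open and closed day 3 eyes overlap, with Klf5 at 23.5 RPKM in the closed eye of E29.

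In newborn eyes the RNA of all 8 factors was higher in labelled knockout than in WT libraries. The differences ran from 3.35-fold for Ovol1 to 8.22-fold for Zfp750. No member's 2 labelled knockout values overlapped its 2 WT values, but the share of all genes with this order was not counted. By edgeR's quasi-likelihood test (Benjamini-Hochberg adjustment over all genes, threshold 0.05), 8 of 8 rose, where 14.6% of the 17592 genes tested were called higher and 9.38% lower. The members' median log2 fold change was 2.28, against -0.07 over all genes tested. In bulk RNA, more cells of a type and more RNA per cell cannot be told apart.

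Among the grainyhead-like factors, Grhl1 had 11.35 and 9.06 RPKM in newborn labelled knockout libraries against 1.86 and 3.05 RPKM in newborn WT libraries. Grhl2, which maintains E-cadherin and claudin expression in epithelia, had 8.51 and 7.02 RPKM against 1.20 and 1.34 RPKM in WT. Grhl3 had 7.44 and 6.13 RPKM against 1.00 and 1.46 RPKM in WT. All 3 were several fold higher in both labelled knockout libraries than in either WT library. The log2 fold changes were 1.92 ± 0.29 for Grhl1 (SE; adjusted p = 0.00558), 2.45 ± 0.25 for Grhl2 (adjusted p = 0.00287) and 2.31 ± 0.29 for Grhl3 (adjusted p = 0.00362) by edgeR. Trp63, the master regulator of stratified epithelia, had 15.66 and 11.93 RPKM in labelled knockout and 1.84 and 3.47 RPKM in WT libraries, a log2 fold change of 2.24 ± 0.33 (adjusted p = 0.00523, edgeR). The differentiation factor Zfp750 had 21.4 and 15.6 RPKM in labelled knockout and 1.73 and 2.33 RPKM in WT libraries. Its log2 fold change, 3.04 ± 0.24 (adjusted p = 0.00233, edgeR), was the highest of the 8.

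Ovol1 had 7.43 and 4.29 RPKM in newborn labelled knockout and 1.11 and 2.06 RPKM in newborn WT libraries, a log2 fold change of 1.74 ± 0.36 (adjusted p = 0.0136, edgeR). Klf4 had 49.2 and 37.1 RPKM against 5.63 and 11.78 RPKM in WT, at 2.18 ± 0.44 (adjusted p = 0.0127). Klf5 had 65.8 and 36.7 RPKM against 4.81 and 7.64 RPKM in WT, at 2.90 ± 0.35 (adjusted p = 0.00337). Within these small groups the libraries of 1 genotype differed from each other by less than the genotypes did, for all 8 genes. Leaving out newborn WT replicate 1 removed every member's call (0 of 8 by edgeR, 8 at an unadjusted p under 0.05, adjusted p 0.0517 to 0.118), and leaving out newborn WT replicate 2 left 5 of 8, without Grhl1 (0.0503), Ovol1 (0.0623) and Klf4 (0.0590). Without newborn labelled knockout replicate 1, the library with little lens RNA, 7 of 8 were called and Ovol1 was not (log2 fold change 1.35, adjusted p = 0.0540).

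Many genes listed as targets or markers of the same programme were also higher in newborn labelled knockout eyes, though few of the cornified genes were called. Over all genes tested, 14.6% were called higher and 9.38% lower. Of the listed grainyhead-like targets 23 of 26 rose and none fell (median log2 fold change 2.56), among them Tgm1, a transglutaminase of the cornified envelope (2.42), and Cdh1, which encodes E-cadherin (2.80). Of the listed p63 targets 19 of 25 rose (median 1.49), led by Sfn (2.90), the kinase gene Ripk4 (2.35), the basal keratin gene Krt14 (3.62) and the desmosomal gene Dsp (2.77). All 27 of the basal epidermis genes rose (median 2.49), among them the laminin genes Lamb3 (3.81) and Lama3 (3.60). Of 36 other epidermal transcription factors 17 rose and 2 fell (median 1.02); Elf5 (3.31), Ehf (3.15) and Barx2 (2.61) rose, and Lhx2, a factor of hair follicles and retina, fell (-1.89). Of the cornified epidermis genes 11 of 49 rose and 1 fell, with 44 of 49 estimates above 0. The protease inhibitor gene Spink5 (4.49) and Krtdap (2.78) rose and the fatty acid elongase gene Elovl4 (-1.65) fell. Lor had 380.6 and 3.457 CPM in the labelled knockout libraries against 9.841 and 32.49 CPM in WT. Krt10 had 907.9 and 93.08 CPM against 35.89 and 205.7 CPM in WT. For both genes, chosen after their values were seen, labelled knockout replicate 2 was below WT replicate 2. The lists overlap: 11 genes are on both the basal and the p63 list, and 14 of the 25 general epithelium genes used below are also listed grainyhead-like targets. EdgeR called 0 genes of any list without newborn WT replicate 1 (4735 of all genes had an unadjusted p under 0.05), and DESeq2 on all libraries called 5158 genes.

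Markers of other tissues moved with the members. The general epithelium genes, which mark epithelia of any kind, rose in 24 of 25 cases (median 2.71), and their summed level was 3043 to 4271 CPM in newborn labelled knockout libraries against 664.8 to 808.8 CPM in newborn WT libraries. Conjunctival and goblet cell markers rose in 7 of 7 cases, at summed levels of 1846 to 3699 CPM against 174.1 to 178.5 CPM in WT. Rod photoreceptor markers fell in 10 of 10 cases, at 53.0 to 172.8 CPM against 719.2 to 852.6 CPM in WT, and no marker on these 3 lists was at 0. Markers of other lid and eye tissue moved too: smooth muscle rose in 5 of 5 cases (median 1.92), endothelium in 7 of 8, fibroblasts in 4 of 7, skeletal muscle in 4 of 8, neutrophils in 3 of 6 and macrophages in 3 of 8, while inner retina fell in 4 of 8. Skeletal muscle markers summed to 5278 to 6516 CPM in newborn labelled knockout libraries against 1966 to 2652 CPM in newborn WT libraries. Hair follicle markers went the other way, with 0 of 10 called higher, 2 called lower and 1 estimate above 0. They summed to 98.84 to 133.4 CPM against 133.7 to 491.3 CPM in WT. Meibomian and sebaceous gland markers rose in 3 of 8 cases and lacrimal gland markers in 3 of 6. Of the lens markers 0 of 9 were called, and all their estimates were below 0. Corneal epithelium markers summed to 593.5 to 630.2 CPM against 665.9 to 828.4 CPM in WT, but the list divided. Of its 5 genes 1 was called higher (Upk1b, 1.94) and 1 lower (Pax6, -0.74). Krt12 gave little of these sums, at 7.73 to 29.4 CPM in the newborn libraries. The part of tissue content in the members' difference was not tested.

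In adult eyes none of the 8 factors passed the test between labelled knockout and WT libraries. By edgeR 0 of 8 members were called and 0 had an unadjusted p under 0.05, and percent called over all 17592 genes was 0%, with 506 genes at an unadjusted p under 0.05. DESeq2 called 101 genes and 0 members. The members' log2 fold changes ran from -0.40 for Grhl2 to 0.76 for Ovol1, with a median of 0.14 against 0.02 over all genes. The lone WT library is assumed to vary like the others, and its own spread was not measured.

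Grhl3 had 17.01 and 25.67 RPKM in adult labelled knockout libraries against 12.3 RPKM in the adult WT library, and Ovol1 had 15.3 and 21.1 RPKM against 10.3 RPKM in WT. Both labelled knockout libraries were above WT for these 2 genes, at log2 fold changes of 0.73 ± 0.34 (unadjusted p = 0.0658, adjusted p = 1, edgeR) and 0.76 ± 0.42 (adjusted p = 1). Trp63 had 12.1 and 17.7 RPKM against 18.2 RPKM in WT, Grhl2 4.45 and 6.19 RPKM against 6.69 RPKM in WT, and Zfp750 19.3 and 22.7 RPKM against 24.99 RPKM in WT. Both labelled knockout libraries were below WT for these 3 genes. How many of all genes lay above or below WT in both libraries was not counted. Klf5 had 49.4 and 65.75 RPKM against 46.7 RPKM in WT, above it in both libraries. In CPM the WT value of Klf5, 90.79, lay between the labelled knockout values of 84.35 and 125.3. Klf4, at 69.7 and 132.2 RPKM against 90.5 RPKM in WT, and Grhl1, at 12.2 and 17.7 RPKM against 12.7 RPKM in WT, had the WT value between the labelled knockout values. Without adult labelled knockout replicate 2 the log2 fold changes of Grhl1, Klf4 and Klf5 turned to -0.22, -0.54 and -0.08. The general epithelium genes had a median of 0.03, from -0.30 to 0.37, with no gene called. Of the cornified genes 0 of 49 were called, 43 of 49 had estimates above 0, and 11 listed genes were at 0 in the adult WT library. Krt10 had 331.6 and 500.9 CPM in adult labelled knockout libraries against 20.5 CPM in WT, and Lor 45.4 and 123.4 CPM against 0.918 CPM in WT, both examples chosen after their values were seen. Corneal epithelium markers summed to 1507 and 8631 CPM in adult labelled knockout libraries against 13560 CPM in WT, and their part in these values was not tested.

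The difference between the adult and the newborn genotype effect was itself tested. The adult effect was lower than the newborn effect for all 8 genes, and it passed the test for 4 of them, where 1.8% of all genes tested were called lower and 0.995% higher. These were Zfp750 (-3.36 ± 0.34 on the log2 scale, adjusted p = 0.0307), Grhl2 (-2.85 ± 0.36, adjusted p = 0.0307), Klf5 (-2.66 ± 0.50, adjusted p = 0.0447) and Trp63 (-2.60 ± 0.49, adjusted p = 0.0457). The differences of Klf4 (-2.08, adjusted p = 0.126), Grhl1 (-1.74, adjusted p = 0.0802), Grhl3 (-1.58, adjusted p = 0.0934) and Ovol1 (-0.98, adjusted p = 0.362) did not pass edgeR's test. Of the general epithelium genes 15 of 25 were called lower, of the grainyhead-like targets 11 of 26, of the basal epidermis genes 9 of 27, of the p63 targets 1 of 25 (Ripk4, -2.65), of the other epidermal transcription factors 3 of 36 and of the cornified genes 0 of 49. Without newborn WT replicate 1 or 2 edgeR called 0 members (6 and 7 at an unadjusted p under 0.05), without newborn labelled knockout replicate 1 it called 2, losing Trp63 (0.0861) and Klf5 (0.0774), and without adult labelled knockout replicate 2 it called 7. DESeq2 called 7 members on all libraries, but it also called more of all genes than edgeR did (count given below).

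**Figure D2:**
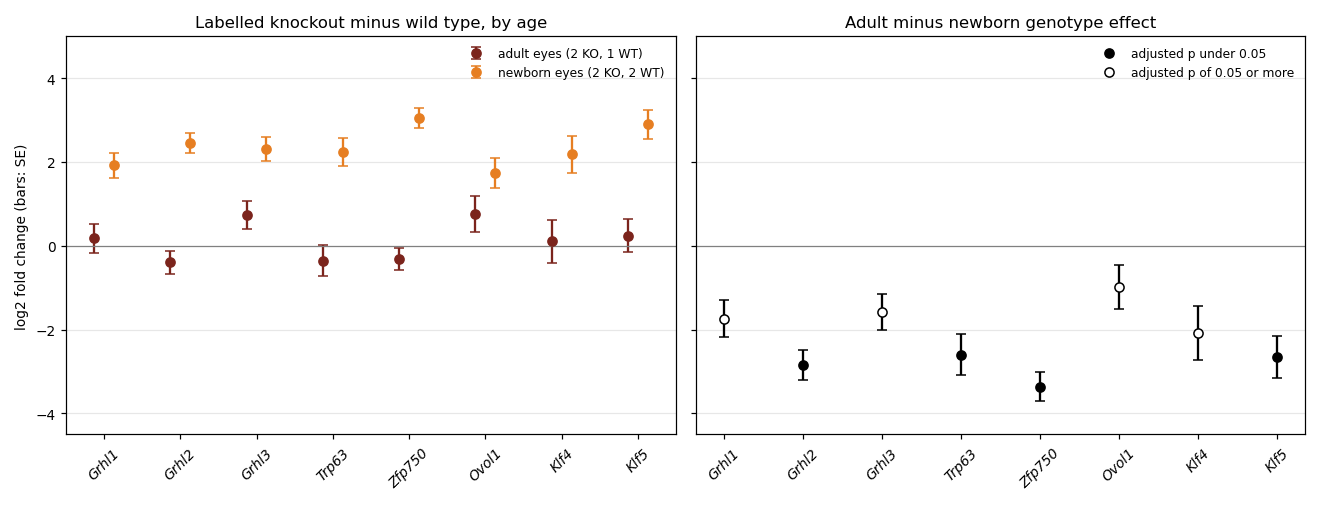
Left, log2 fold change of labelled knockout over WT in adult and newborn eyes, with its SE; right, adult minus newborn effect, filled where the adjusted p is under 0.05. The newborn points lie at 1.74 to 3.04, the adult points at -0.40 to 0.76, and the filled differences are those of Grhl2, Trp63, Zfp750 and Klf5.

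Between newborn and adult age the WT libraries differed at every member. All 8 were higher in the adult WT library than in newborn WT libraries, by 2.28 on the log2 scale for Grhl1 and Grhl2 up to 3.52 ± 0.26 for Zfp750 (SE; edgeR adjusted p 0.000302 to 0.00338), where 18% of all genes were called higher and 14.6% lower. Klf4 differed by 3.30 ± 0.50, Grhl3 by 3.22 ± 0.33, Klf5 by 2.82 ± 0.38, Trp63 by 2.69 ± 0.38 and Ovol1 by 2.61 ± 0.41. All 8 differences stayed above 0 in each alternative run. Every run used the same lone adult WT library, whose own spread was not measured. The grainyhead-like targets rose in 22 of 26 cases and fell in 1, the basal genes rose in 23 of 27, and the general epithelium genes in 21 of 25 (median 2.51). The cornified list had calls in both directions, with 10 of 49 genes called higher, 3 called lower and 17 of 49 estimates above 0. This comparison shares the newborn WT libraries with the newborn genotype comparison, and corneal epithelium markers, with 3 of 5 called higher, moved with it; their part was not tested.

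In labelled knockout eyes only Grhl3 and Ovol1 passed the same test of age, 2 of 8 members where 19.3% of all genes were called higher and 20.4% lower. The members were called higher at about the rate of all genes. Grhl3 rose by 1.64 ± 0.27 (edgeR adjusted p = 0.00344) and Ovol1 by 1.63 ± 0.34 (adjusted p = 0.00897) on the log2 scale, adult over newborn. For both genes each adult labelled knockout library was above each newborn one, as was also so for Klf4 and Grhl1. The share of all genes with this order was not counted. Klf4 differed by 1.22 ± 0.42 (adjusted p = 0.0553), Grhl1 by 0.54, Zfp750 and Klf5 by 0.16 each, Trp63 by 0.10 and Grhl2 by -0.56. Klf4 was called by DESeq2 (adjusted p = 0.00704). The age effects of labelled knockout and WT differ by the same contrast as the genotype effects of the 2 ages, tested above. Without adult labelled knockout replicate 1, the library with almost no Krt12, 4 members were called by edgeR, with Grhl1 (0.85, adjusted p = 0.0310) and Klf4 (1.67, adjusted p = 0.00696) added. Without adult labelled knockout replicate 2, Grhl2 was called lower (-0.89, adjusted p = 0.0132). The basal epidermis list divided, with 3 of 27 genes higher and 8 lower, as did the general epithelium list, with 2 of 25 higher and 5 lower.

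At day 3 the fitted difference between open and closed eyes within mice was above 0 for all 8 members, but none passed the test over all genes. The log2 differences ran from 0.51 ± 0.25 for Klf4 to 2.00 ± 0.58 for Zfp750 (SE), with a median of 1.18 against 0.02 over all 15754 genes tested. EdgeR with the mouse as a block called 0 of 8 members, with 5 at an unadjusted p under 0.05, where 0.457% of genes were called higher and 0.0571% lower. DESeq2 with the same block called Grhl3 (adjusted p = 0.0108), Ovol1 (adjusted p = 0.0163) and Zfp750 (adjusted p = 0.0254). That run also called more of all genes than edgeR did (count given below). The comparison rests on 2 mice with 1 eye of each kind.

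Grhl3 had 2.46, 2.53, 9.35 and 5.84 RPKM in the open eyes of E24, E29 and E32 (right, then left), against 0.894 and 0.938 RPKM in the closed eyes of E24 and E29 and 1.22 and 1.51 RPKM in the right and left eyes of E28. Ovol1 had 1.82, 2.88, 20.1 and 8.81 RPKM in open eyes, against 0.545 and 0.944 RPKM in closed labelled knockout eyes and 1.05 and 1.33 RPKM in the Egr1+/- eyes. Zfp750 had 4.92, 5.69, 15.8 and 14.1 RPKM in open eyes, against 1.12 and 1.64 RPKM in closed labelled knockout eyes and 0.916 and 4.17 RPKM in the Egr1+/- eyes. For these 3 genes, and no other member, all 4 open eyes were above all 4 closed eyes. Both eyes of E32 were open and both of E28 closed, so this order mixes mouse and genotype with lid state. The share of all genes with this order was not counted. The log2 differences within mice were 1.48 ± 0.32 for Grhl3 (adjusted p = 0.174), 1.71 ± 0.42 for Ovol1 (adjusted p = 0.233) and 2.00 ± 0.58 for Zfp750 (adjusted p = 0.384) by edgeR. Grhl1 had 1.85, 3.99, 11.3 and 9.19 RPKM in open eyes, against 0.903 and 1.08 RPKM in closed labelled knockout eyes and 0.820 and 2.60 RPKM in the Egr1+/- eyes. The open eye of E24 was below the left eye of E28 for Grhl1, so that open and closed eyes overlapped.

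Trp63 had 1.93, 6.22, 18.4 and 14.1 RPKM in open eyes, against 1.20 and 3.16 RPKM in closed labelled knockout eyes and 1.99 and 4.06 RPKM in the Egr1+/- eyes. Grhl2 had 0.614, 2.81, 6.53 and 7.40 RPKM in open eyes, against 0.512 and 1.35 RPKM in closed labelled knockout eyes and 0.547 and 1.88 RPKM in the Egr1+/- eyes. For both genes the open eye of E24 lay within the range of the closed eyes. Klf4 had 18.8, 17.9, 54.5 and 46.9 RPKM in open eyes, against 9.23 and 18.7 RPKM in closed labelled knockout eyes and 10.5 and 13.2 RPKM in the Egr1+/- eyes. Klf5 had 11.7, 19.8, 50.8 and 44.3 RPKM in open eyes, against 3.61 and 23.5 RPKM in closed labelled knockout eyes and 8.47 and 14.2 RPKM in the Egr1+/- eyes. In E29 the open and closed eyes had nearly the same Klf4 and Klf5 levels. For all 8 genes the eyes of E32, both open, were above the open eye of E24, and for every gene E32 gave the highest value at day 3.

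Within mouse E24 the open eye was higher for 8 of 8 members (median log2 ratio 1.23), from 0.24 for Grhl2 to 2.11 for Zfp750. Within E29 it was higher for 7 of 8 (median 1.34), from -0.15 for Klf5 to 1.97 for Grhl1. Eyes in the same lid state differed too. In E32 the right over left ratio had a median of 0.31, and in E28, both eyes closed, it was below 0 for 8 of 8 members, with a median of -0.78 and -2.08 for Zfp750. The epithelial gene Epcam was at -3.03 in that pair, and the part of tissue content in it was not tested. Over all genes the same ratio was above 0 for 53.01% in E24, 51.73% in E29, 49.66% in E32 and 51.66% in E28. The median size of the log2 ratio over all genes was 0.158 in E24, 0.263 in E29, 0.323 in E32 and 0.269 in E28. For the members it was 1.23, 1.34, 0.308 and 0.775, so in E32 it did not exceed that of all genes.

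**Figure D3:**
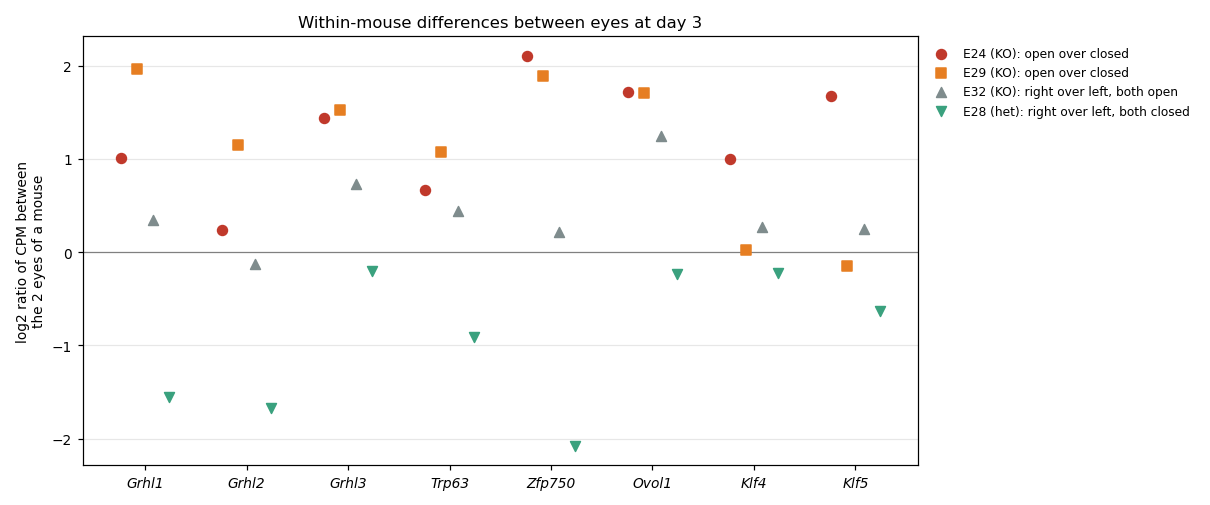
Log2 ratio of CPM between the 2 eyes of each day 3 mouse, for each of the 8 genes; a point is 1 mouse. E24 and E29 compare open over closed eyes, with medians of 1.23 and 1.34, and E32 and E28 compare right over left eyes in the same lid state, with medians of 0.31 and -0.78.

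At day 3 a minority of each target or marker list was called, where 0.457% of all genes tested were called higher and 0.0571% lower. Of the basal epidermis genes 11 of 27 were higher in open eyes (median 1.63), among them Krt14 (3.92), Sfn (2.92), the desmoglein gene Dsg3 (2.68) and Lamb3 (2.99), and 5 of 25 p63 targets were higher. Of the grainyhead-like targets 2 of 26 were called, Tgm1 (2.50) and the claudin gene Cldn4 (2.62), at a list median of 1.51. Of the cornified genes 3 of 48 were called, namely Cnfn, Tgm1 and Asprv1, and of the other epidermal transcription factors 0 of 36. The general epithelium list had a median of 1.14 with 1 of 25 called, and its summed level was 1136 to 5125 CPM in open eyes against 681.8 to 1057 CPM in closed labelled knockout eyes and 962.6 to 1610 CPM in the closed Egr1+/- eyes, so that open and closed eyes overlapped. Conjunctival and goblet cell markers, with 2 of 7 called, were at 950.3 to 2516 CPM in open eyes against 142.1 to 182.8 CPM in closed labelled knockout eyes, where Muc5ac and Agr2 had a 0, and 251.7 to 378.1 CPM in closed Egr1+/- eyes. The corneal keratin gene Krt12 was called lower, at 24.5 to 41.97 CPM in the 4 open eyes against 94.0 to 120.1 CPM in the 4 closed eyes (log2 difference -1.41, edgeR adjusted p = 0.0482), and the 5 corneal markers, of which 1 was called, summed to 668.2 to 1082 CPM in open eyes against 1204 to 1384 CPM in closed eyes. The part of these tissues in the members' values was not tested.

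Between the 3 day 3 mice labelled Egr1-/- and the 1 labelled Egr1+/- no member was called (0 of 8; 0% of 16453 genes by edgeR, 273 genes and 0 members at an unadjusted p under 0.05; DESeq2 98 genes and 0 members). The members' log2 differences ran from 1.20 for Klf5 to 2.33 for Ovol1, each with an adjusted p of 0.999 by edgeR. Closed eyes alone turned 6 of them below 0, from -0.29 for Grhl2 to -0.77 for Zfp750, and left Klf4 and Klf5 above 0. Genotype and lid state cannot be told apart in the summed eyes, since the Egr1+/- mouse had no open eye.

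The Trp63 gene is known to start at an upstream promoter, giving TA forms, and at an internal one, giving the delta-N forms that prevail in epidermis. The files list 8 Trp63 transcripts, of which 3 have the upstream and 5 the internal start, and the longest of each kind share 11 exons. Bases outside the shared exons numbered 849 in the upstream and 186 in the internal transcript. The internal transcript had more reads in 15 of 15 libraries although it is 663 bases shorter. The surplus was 6 to 155 reads, or 2.26% to 5.49% of its reads. At day 3 it was 155 and 94 reads in the eyes of E32 and 6 reads in the closed eye of E24. Reads on shared exons count for both kinds, so these tables give no level for either.

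Over the 15 libraries the members followed each other. Pearson r of log2(CPM + 1) had a median of 0.913 over the 28 pairs of members, from 0.81 between Grhl2 and Grhl3 to 0.971 between Grhl2 and Trp63. These are descriptions: the points share groups, and 8 of them come from 4 mice. Of 12900 other genes compared with the members' mean, 359 (2.78%) had an r of at least 0.9, and the median was -0.06. Among the nearest were F11r (0.987), which encodes the junction protein JAM-A, Rab25 (0.986), an epithelial Rab GTPase, Mapkapk3, Atp10b, Cblc, the basement membrane gene Lad1, Bnipl, Arhgef5 and Bspry (0.981). The 25 general epithelium genes, 14 of them also grainyhead-like targets, had a median r of 0.918. Krt5 reached 0.942, Krt14 0.777, the suprabasal keratin Krt10 0.737, the cornified envelope gene Lor 0.57, the corneal keratin Krt12 0.177 and the lens gene Cryaa -0.436, while Egr1 was at 0.359.

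Taken singly, the members had different nearest genes. Nearest to Trp63 were Ripk4 (0.981) and Ap1m2 (0.973), and nearest to Grhl2 were Tnk1 (0.976) and Epcam (0.976). Grhl3 was nearest to Ly6g6e (0.984) and to the galectin gene Lgals3 (0.980), and Grhl1 to S100a16 (0.978) and Fam83b (0.975). Zfp750 was nearest to Stap2 (0.979) and Rab25 (0.977), and Ovol1 to the transglutaminase gene Tgm5 (0.966) and Lrrc8e (0.965). Klf4 was nearest to Rab3d (0.981) and Phyhip (0.980), and Klf5 to Ildr1 (0.981) and Aim1 (0.970).

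Set against the mean of the 25 general epithelium genes in the same library, the members varied less. Of these 25 genes, 14 are also listed grainyhead-like targets. The range of log2(CPM + 1) over the 15 libraries was 3.41 for Grhl2 to 4.603 for Ovol1, and 3.13 for the epithelial mean itself. Relative to that mean it was 1.20 for Trp63, the smallest, 1.42 for Grhl2, 1.63 for Klf5, 1.71 for Grhl1, 2.04 for Klf4, 2.17 for Zfp750, 2.28 for Ovol1 and 2.40 for Grhl3. Relative to the mean, Grhl3 stood at -2.23 ± 0.20 in newborn labelled knockout and -1.98 ± 0.04 in newborn WT libraries (SD, n = 2 each), and at -0.52 ± 0.21 in adult labelled knockout libraries (n = 2) and -1.20 in the adult WT library. Ovol1 stood at -2.41 ± 0.15 in newborn labelled knockout and -1.66 ± 0.17 in newborn WT libraries, below WT there on this scale although its own level was higher. Zfp750 stood at -0.61 ± 0.07 in newborn labelled knockout and -1.18 ± 0.09 in newborn WT libraries, and Klf5 at -0.10 ± 0.20 and -0.56 ± 0.07, so that these 2 exceeded the epithelial genes' difference. Klf4 stood at 1.79 in adult labelled knockout and 1.78 in adult WT libraries, and at 0.51 in newborn labelled knockout and 0.63 in newborn WT libraries. No test was made on this scale, and tissue content other than epithelium is not removed by it.

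**Figure D4:**
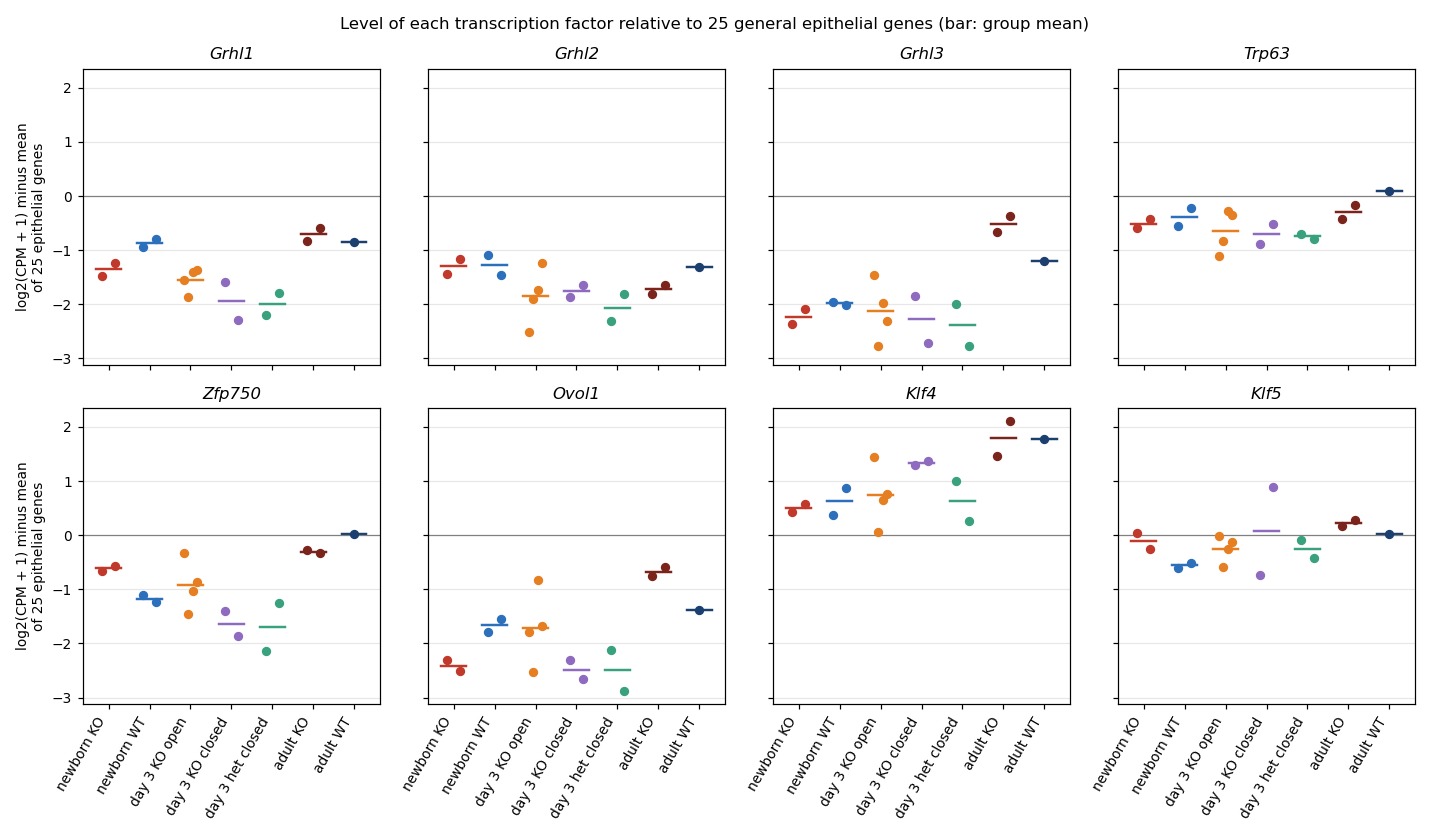
Log2(CPM + 1) of each gene minus the mean of 25 general epithelium genes in the same library, by group; points are libraries and bars group means. Trp63 keeps within 1.20 log2 units over all libraries and Grhl3 spans 2.40, with its adult labelled knockout mean at -0.52 and its newborn labelled knockout mean at -2.23.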

How the data were processed

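RNA was sequenced on an Illumina HiSeq after poly(A) selection, per the labels' protocols. The submitters' processing notes name CASAVA 1.8, Bowtie 0.12.9, TopHat2 2.0.11, SAMtools and mouse build mm8, without their roles; the counting program and its strand setting are not given in the sources used here, so antisense reads cannot be told apart. The deposited tables give, per the file headers, a read count and an RPKM for each of 24373 transcripts, which the authors made for each library. Of 20418 symbols, 2673 had several transcripts, and the one with the highest mean count was kept.

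Counts were tested with edgeR 4.0.16 (quasi-likelihood test, TMM, filterByExpr, Benjamini-Hochberg over all genes tested, threshold 0.05) in R 4.3.3. The 7 newborn and adult libraries were 1 fit with a mean per group. The fit of the 8 day 3 eyes had a term for each mouse, and day 3 genotypes were compared on reads summed per mouse. CPM is on 1 TMM scale over 15 libraries. Alternatives were other size factors, RPKM library totals, no filter, all transcripts, DESeq2 1.42.0, blocks and libraries left out. The scripts were tested on simulated data. Named genes were the members, up to 4 genes with the smallest p in each list, the genes nearest in pattern (mean RPKM of at least 1), Egr1, and tissue markers of high count. Some genes that this rule names are not reported here. Members, lists and rules were chosen with earlier results of these data known.

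The labels do not say whether replicate numbers pair libraries. Same-numbered newborn libraries had deviations correlated at 0.193, and labelled knockout libraries at 0.0887. With 2 pairs each, these values cannot settle whether libraries were paired.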

Additional observations from a re-analysis of the deposited data

Results flagged for a closer look

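The genotype effect differed between ages, by edgeR's test of the difference itself, for 4 of the 8 genes. Over all genes tested, 1.8% were called lower and 0.995% higher, and of the general epithelium genes 15 of 25 were called lower. The adult minus newborn difference of the labelled knockout over WT log2 fold changes was -3.36 for Zfp750, -2.85 for Grhl2, -2.66 for Klf5 and -2.60 for Trp63. These calls depend on both newborn WT libraries, and without either of them none of the 4 passed, at adjusted p of 0.167 to 0.209.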

How the results depend on the processing

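Signs and calls of the 8 genes in newborn genotype and in age in WT held under other size factors, RPKM library totals, no filter, all transcripts and DESeq2. Counts of called genes moved more. In adult genotype edgeR's 0 genes became 33 with RPKM library totals, 13 with no filter and 101 with DESeq2. DESeq2 called 2118 genes and 7 members for the genotype effect between ages, 365 genes and 3 members for lid state and 98 genes for day 3 genotype. Without the mouse block, lid state had 400 genes and 1 member called (Grhl3, 2.17, adjusted p = 0.0431), and with only E24 and E29 it had 210 genes and 1 member (Zfp750, 1.98, adjusted p = 0.00998). With the replicate number as a block, newborn genotype had 3262 genes and 8 members, and age in labelled knockout 6940 genes and 2 members. RPKM library totals moved the median of all genes in newborn genotype to 0.08 (main value -0.07) and in age in WT to 0.02 (main value -0.08). They split the newborn calls into 2751 higher and 1084 lower (main 2576 and 1650) and those between ages into 98 higher and 352 lower (main 175 and 317).

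Leaving out 1 library or mouse at a time gave 0 to 5116 genes and 0 to 8 members for newborn genotype, 0 to 205 genes for adult genotype, and 0 to 1613 genes and 0 to 7 members between ages. It gave 3460 to 6424 genes for age in WT, 2 to 4 members for age in labelled knockout, 0 to 129 genes and 0 to 1 members for lid state, and 0 to 6 genes for day 3 genotype. Without mouse E28, Zfp750 was called for lid state (1.99, adjusted p = 0.0300), and Klf5 ran from -0.15 without E24 to 1.67 without E29. In adult genotype, Grhl1 ran from -0.22 to 0.49, Klf4 from -0.54 to 0.55 and Klf5 from -0.085 to 0.50, each from without labelled knockout replicate 2 to without replicate 1. In age in labelled knockout, Trp63 turned to -0.28, Klf5 to -0.14 and Zfp750 to -0.032 without adult replicate 2, and to -0.039, -0.16 and -0.0036 without newborn replicate 2, and their highest values were 0.42 without adult replicate 1, 0.58 and 0.35 without newborn replicate 1. Day 3 genotype in closed eyes only gave -0.70 for Grhl1, -0.29 for Grhl2, -0.58 for Grhl3, -0.43 for Trp63, -0.68 for Ovol1 and -0.77 for Zfp750. The cause of these changes was not tested. TMM-scaled RPKM raised 14 group means by more than their SD or, with 1 library, at all, all 8 adult WT values among them. The median r between members was 0.912 to 0.95 under other pseudocounts and without each age. The lone adult WT library and the 2 mice with both lid states limit what these data can show.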

Other observations

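The eyes of E32, both open, differed from the open eyes of E24 and E29 in cornified genes. Krt10 was at 1977 and 666.0 CPM in the right and left eyes of E32, against 13.9 CPM in the open eye of E24 and 14.5 CPM in that of E29. Lor was at 643.3 and 218.0 CPM in the eyes of E32, against 6.76 and 5.22 CPM in the open eyes of E24 and E29. Ovol1 had 20.1 and 8.81 RPKM in the eyes of E32, against 1.82 and 2.88 RPKM in the open eyes of E24 and E29. The hair follicle markers summed to 33.5 to 3027 CPM over the 4 open eyes. These were values of single mice, chosen after they were seen, and no test was made.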
